A study of Homo sapiens with 9 samples.

Results

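The genes described here are 38 genes of the ATF4 stress response and of the serine, one-carbon and amino acid pathways that it feeds. They were taken as the array rows whose platform gene symbol is on the list. Of the 38, 35 had a row with 1 gene symbol, among 17687 genes so named in a table of 21448 rows. ATF5, SHMT1 and GPT2 had none and were not analysed here. Most of the measured genes were well expressed. Mean signals of the 35 lay between percentiles 27.8 (FGF21) and 99.1 (MTHFD2) of all rows, with a median of 87.5, and 17 lay in the top 10%. FGF21 and VLDLR (percentile 45.55) lay under the median of all rows, and CTH (50.11) lay close to it. The 35 genes lie on 19 chromosomes.

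Signals were measured in AsPC-1, an established human pancreatic cancer cell line. One group carried a pBAsi-hU6 NEO plasmid with the first short hairpin RNA (shRNA) against SLP-2 (sh1), another the same plasmid with the second (sh2), and the third the blank plasmid (control). SLP-2, encoded by STOML2, is stomatin-like protein 2 of the mitochondrial inner membrane. All groups were selected with Geneticin for 3 weeks and each was then grown from a single colony. Each group had 3 arrays and is 1 clone, so a hairpin effect and a difference between clones cannot be told apart, and the p-values reflect array-to-array spread alone, which may be technical.

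ATF4 is a transcription factor whose mRNA is translated more when eIF2 alpha is phosphorylated by a stress kinase, as happens in amino acid shortage, endoplasmic reticulum stress and mitochondrial dysfunction. With partners such as C/EBP gamma it induces enzymes that make serine, glycine, proline and asparagine, transporters that import amino acids, and stress proteins such as CHOP and TRIB3 that feed back on the response. Much of this control acts on translation, which arrays of RNA do not measure. In bulk RNA, a change in all cells and a larger change in a fraction of them cannot be told apart.

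STOML2 itself had log2 signals of 8.36, 8.42 and 8.18 in sh1 and 7.85, 7.99 and 7.35 in sh2, against 13.70, 13.66 and 13.65 in the control. The clones labelled as knockdowns were thus low in their target, by -5.35 ± 0.16 (SE) in sh1 and -5.94 ± 0.16 in sh2 on the log2 scale. Array medians lay between 6.57 and 6.65, and arrays correlated across rows at r = 0.994 to 0.996 within a group and at 0.982 to 0.988 between groups. All 6 markers of pancreatic epithelial cells were above the array medians in every group, but the clones differed in several of them. KRT8 and KRT18 averaged 13.38 to 16.91 and rose in both clones, KRT7 averaged 9.19 to 9.64 and was not called, and KRT19 fell in both, with changes of -1.69 in sh1 and -0.57 in sh2. EPCAM, an epithelial adhesion protein, averaged 13.88 in sh1 and 9.68 in sh2, against 8.94 in the control, 30.7-fold higher in sh1 than in the control. E-cadherin (CDH1) averaged 10.74 in sh1 and 8.19 in sh2, against 8.71 in the control, 4.09-fold higher in sh1 and at a change of -0.52 in sh2 (with adjusted p of 4.02e-06 and 0.0419 by limma). Their part in the results was not tested. Markers of immune, endothelial and fibroblast cells averaged 3.22 to 6.20, below the array medians, with VWF (6.03 to 6.20) and CD14 (5.28 to 5.76) the brightest of them, other than CD68, a lysosomal protein, which averaged 11.92 to 12.81.

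One array stood apart for these genes. Array 2 of sh1 was the highest of its group for 26 of the 35 genes, while over all rows it was highest for 37.5%. The median of the 35 genes lay 0.33 above the mean of the other 2 sh1 arrays, against 0.01 over all rows, and in no other array did that median lie beyond -0.22 or 0.07. ATF3, a stress-induced transcription factor, read 10.58 in that array and 7.61 in each of the others, a gap of 2.97 that ranked 1 among all 21448 rows. DDIT3 (CHOP) ranked 2 with a gap of 1.95, and SESN2 ranked 4 with 1.67. CHAC1 ranked 12 with a gap of 1.48, and DDIT4 ranked 43 with 1.14. These 5 were the only ones of the 35 with a gap over 1, a size that 0.471% of all rows passed. The serine enzyme PHGDH went the other way (-0.21) and CBS did not stand out (0.04). The values of these genes in sh1 are therefore given below with and without that array.

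**Figure D1:**
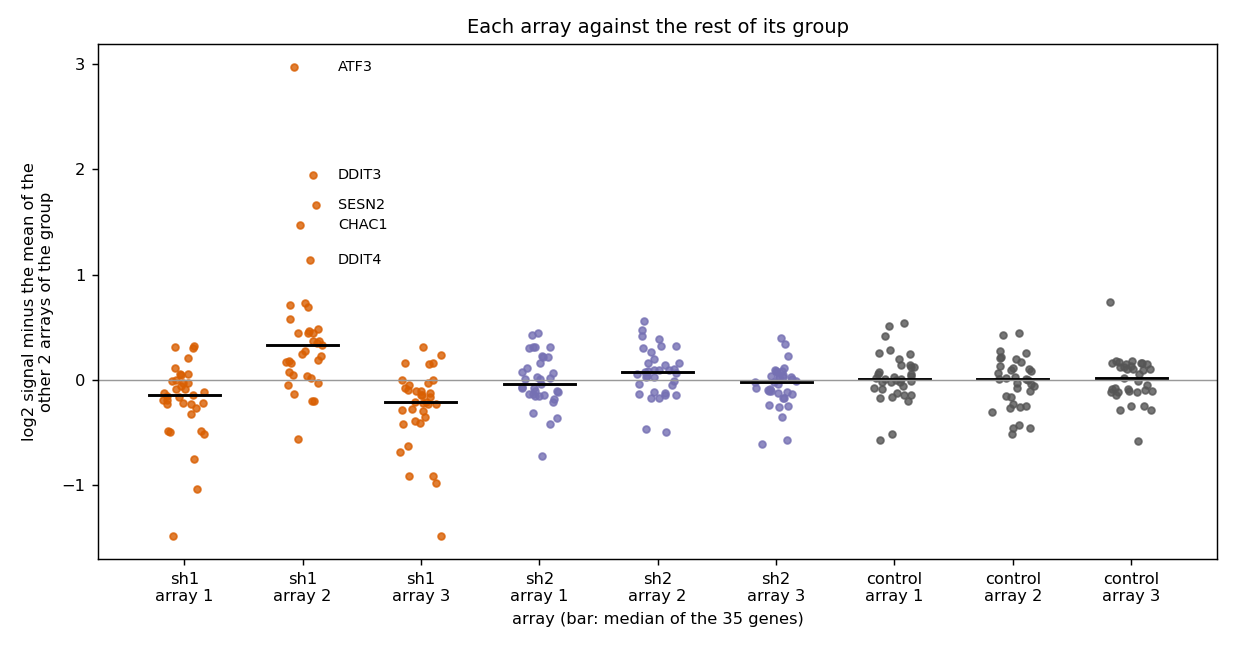
Each point is 1 of the 35 genes in 1 array, as its log2 signal minus the mean of the other 2 arrays of the same group, and bars are medians over the genes. In sh1 array 2 the median is 0.33 and ATF3, DDIT3, SESN2, CHAC1 and DDIT4 lie above 1, while no gene lies above 1 in any other array.

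Against the control clone, more of these genes rose than fell with either hairpin. In sh1, 17 of the 35 rose and 1 fell (limma, adjusted p under 0.05 over all rows), where 18.8% of all rows were called, 9.76% as higher and 9.0% as lower. In sh2, 16 rose and 1 fell, where 16.3% of all rows were called, 8.33% as higher and 7.98% as lower. The median change of the 35 genes was 0.52 in sh1 and 0.60 in sh2, against 0.02 in each over all rows. Rises reached at least 2-fold for 6 genes in sh1 and for 8 in sh2. The share of all rows with called rises of that size was not counted, so these numbers have no background to stand beside. Of the 6 in sh1, DDIT3, SESN2 and SLC7A11 were under 2-fold without sh1 array 2 (log2 changes of 0.67, 0.68 and 0.975). TRIB3, CHAC1 and GDF15 stayed above it (1.36, 1.33 and 3.38). Both comparisons share the 3 control arrays, so their values are set side by side without being counted as independent. The list was assembled with earlier results of these data known, and these counts describe it.

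Leaving out sh1 array 2 ended the sh1 calls of ATF4 and SLC7A5 and added that of ATF3. In sh1, 16 then rose and 1 fell, with a median of 0.34, where 15.4% of all rows were called. In sh2, whose arrays were untouched, 21 then rose and 1 fell, where 16.7% of all rows were called, because the spread is estimated over all groups. The SE of the SESN2 change in sh2 dropped to 0.13 without that array, against 0.35 with it.

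**Figure D2:**
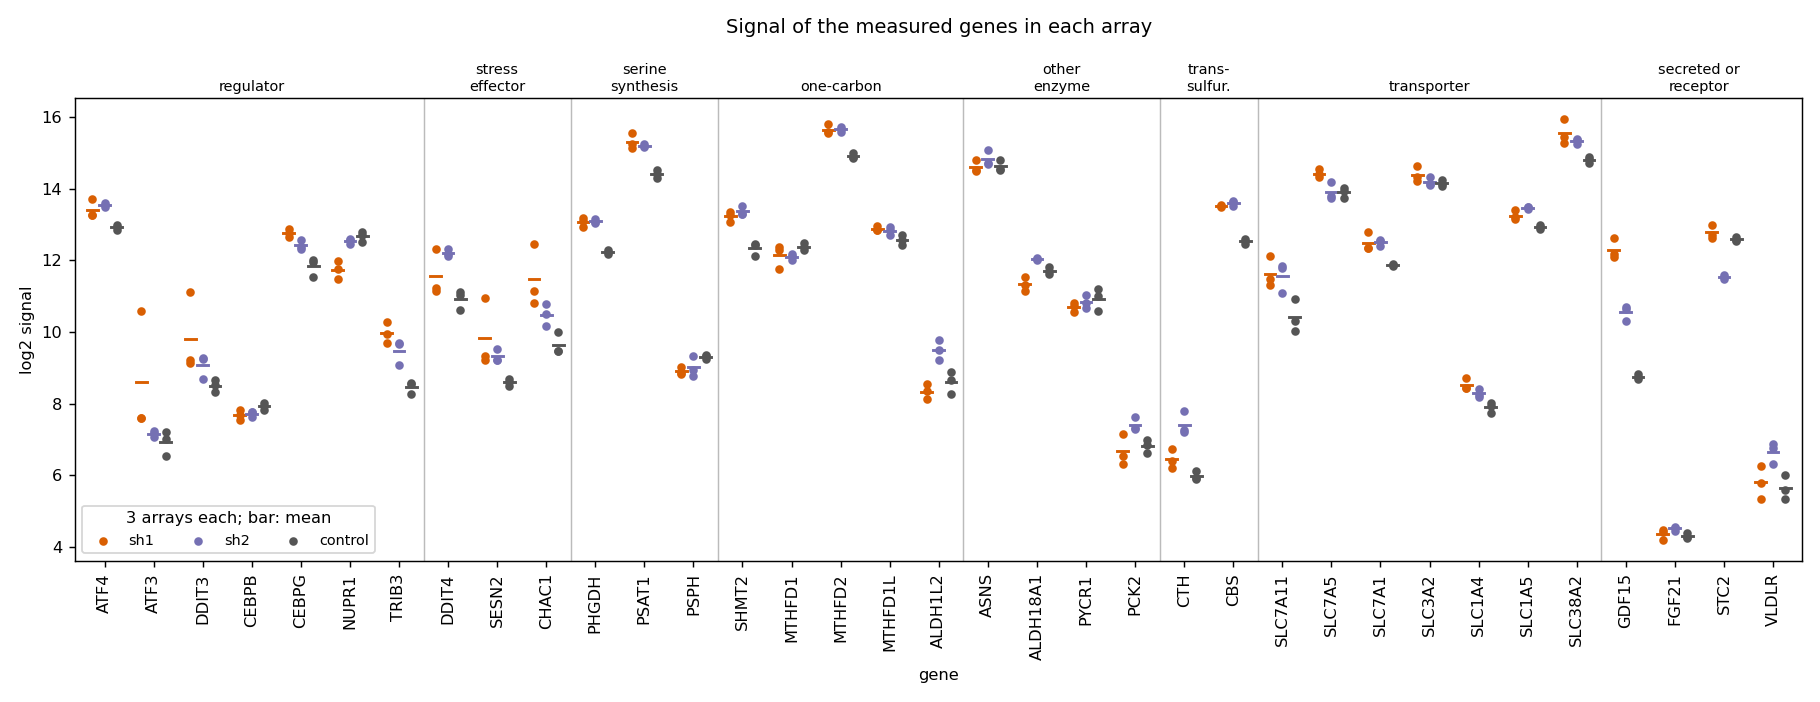
Log2 signal of the 35 measured genes, grouped by role, with 1 point per array and a bar at each group's mean for sh1, sh2 and control. PHGDH, PSAT1, SHMT2, MTHFD2 and CBS lie above the control in all arrays of both hairpin clones, with little spread, while ATF3, DDIT3 and SESN2 have 1 high point in sh1.

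ATF4 rose modestly in both clones. Its log2 signals were 13.26, 13.71 and 13.27 in sh1 and 13.55, 13.61 and 13.48 in sh2, against 12.94, 12.99 and 12.85 in the control. All hairpin arrays lay above all control arrays. The change was 0.49 ± 0.14 (SE) in sh1 (adjusted p of 0.0344 by limma) and 0.62 ± 0.14 in sh2 (adjusted p of 0.0119). The sh1 call was lost without sh1 array 2 (0.34, adjusted p = 0.107) and without any 1 of the control arrays (adjusted p at least 0.0657), and also after quantile normalization (0.45, adjusted p = 0.0530).

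TRIB3, a pseudokinase that ATF4 and CHOP induce and that restrains ATF4, rose in both clones. Its signals were 9.95, 10.28 and 9.69 in sh1 and 9.69, 9.68 and 9.07 in sh2, against 8.54, 8.57 and 8.27 in the control. Neither hairpin clone overlapped the control. It changed by 1.51 ± 0.20 in sh1 (adjusted p of 0.000257 by limma) and by 1.02 ± 0.20 in sh2 (adjusted p of 0.00449). CEBPG, which encodes C/EBP gamma, a dimer partner of ATF4, likewise rose, by 0.93 ± 0.15 (adjusted p of 0.00104) and 0.60 ± 0.15 (adjusted p of 0.0177). Its sh2 call was lost without control array 2 or sh2 array 3 (0.46 and 0.53, adjusted p = 0.0691 and 0.0680). CEBPB, a related factor of the same family, was not called, with differences of -0.23 in sh1 and -0.20 in sh2 (with adjusted p of 0.249 and 0.337).

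DDIT3 encodes CHOP, a transcription factor tied to stress-induced cell death. Its signals were 9.13, 11.12 and 9.21 in sh1 and 9.29, 9.26 and 8.70 in sh2, against 8.66, 8.33 and 8.51 in the control. Every hairpin array lay above every control array, and sh1 array 2 lay well above all. The sh1 change was 1.32 ± 0.42 (adjusted p of 0.0493 by limma) with all arrays and 0.67 (adjusted p of 0.0424) without sh1 array 2. That sh1 call rested close to the threshold: it was lost without any 1 of the control or sh2 arrays (adjusted p = 0.0574 to 0.134). The sh2 difference was 0.58 (adjusted p of 0.423), and it passed without sh1 array 2 (adjusted p of 0.0445). DDIT3 lies on chromosome 12, where its nearest expressed genes had median changes of 0.28 in sh1 and 0.42 in sh2. Less these, DDIT3 was at 1.04 in sh1 (adjusted p of 0.0887) and at 0.16 in sh2 (adjusted p of 0.83).

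ATF3, which acts with CHOP downstream of ATF4, shows the same array most plainly. Its signals were 7.61, 10.58 and 7.61 in sh1 and 7.23, 7.06 and 7.18 in sh2, against 7.02, 7.22 and 6.54 in the control. The sh1 difference of 1.67 ± 0.61 did not pass (adjusted p of 0.0836 by limma). Without sh1 array 2 it was smaller, 0.68, and passed (adjusted p of 0.0357). In sh2 the arrays overlapped the control and the difference was 0.23 (adjusted p of 0.863). NUPR1, a small chromatin-associated stress protein, was the 1 gene of the list that fell in sh1. It read 11.77, 11.97 and 11.48 in sh1 and 12.47, 12.57 and 12.59 in sh2, against 12.70, 12.80 and 12.50 in the control, and its change was -0.93 ± 0.15 in sh1 (adjusted p of 0.00102) and -0.12 in sh2 (adjusted p of 0.662).

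Among the stress effectors, CHAC1, which degrades glutathione, had signals of 11.14, 12.45 and 10.81 in sh1 and 10.77, 10.16 and 10.49 in sh2, against 9.99, 9.47 and 9.48 in the control. It rose in sh1 by 1.82 ± 0.35 (adjusted p of 0.00328 by limma), and by 1.33 without sh1 array 2 (adjusted p of 0.00258). CHAC1 lies on chromosome 15, where its 40 nearest expressed genes had a median change of 0.74 in sh1. With that neighbour median subtracted in each array, its sh1 change was 1.08 and no longer passed (adjusted p of 0.0548). In sh2 its difference was 0.83 (adjusted p of 0.145), and it passed without sh1 array 2 (adjusted p of 0.0172).

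SESN2 encodes a sestrin, an inhibitor of mTORC1 in amino acid shortage. It read 9.34, 10.95 and 9.23 in sh1 and 9.53, 9.21 and 9.23 in sh2, against 8.61, 8.50 and 8.70 in the control. All hairpin arrays lay above the control arrays. The sh1 change was 1.24 ± 0.35 (adjusted p of 0.0306 by limma) with all arrays and 0.68 (adjusted p of 0.0109) without sh1 array 2, and it was lost without any 1 control array (adjusted p = 0.0652 to 0.0894). In sh2 the difference was 0.72 (adjusted p of 0.218), and it passed without sh1 array 2 (adjusted p of 0.00419).

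DDIT4 (REDD1), another inhibitor of mTORC1, was the stress effector that rose in sh2. It read 11.23, 12.32 and 11.14 in sh1 and 12.11, 12.31 and 12.19 in sh2, against 11.11, 10.62 and 11.04 in the control. The sh2 change was 1.28 ± 0.27 (adjusted p of 0.00678 by limma). In sh1 the difference was 0.64 (adjusted p of 0.132), and 0.26 without array 2 (adjusted p of 0.370).

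Serine is made from a glycolytic intermediate by PHGDH, PSAT1 and PSPH in turn. PHGDH, the first enzyme, read 13.10, 12.93 and 13.17 in sh1 and 13.04, 13.15 and 13.08 in sh2, against 12.24, 12.29 and 12.17 in the control. PSAT1, the aminotransferase of the second step, read 15.26, 15.56 and 15.13 in sh1 and 15.17, 15.24 and 15.18 in sh2, against 14.30, 14.42 and 14.52 in the control. Neither gene had any overlap between hairpin and control arrays. PHGDH rose by 0.83 ± 0.12 in sh1 (adjusted p of 0.00047 by limma) and 0.86 ± 0.12 in sh2 (adjusted p of 0.000458), and PSAT1 by 0.90 ± 0.14 (adjusted p of 0.000725) and 0.78 ± 0.14 (adjusted p of 0.00231). PSPH, the phosphatase of the last step, was not called and its differences were negative. It read 8.87, 9.02 and 8.84 in sh1 and 8.78, 9.34 and 8.95 in sh2, against 9.33, 9.35 and 9.25 in the control, with differences of -0.40 in sh1 (adjusted p of 0.0938) and -0.29 in sh2 (adjusted p of 0.252). The sh1 value passed without sh2 array 2 (adjusted p of 0.0494).

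Of the 5 measured one-carbon genes, all but MTHFD1 encode mitochondrial enzymes, and so do the 2 called in sh1. SHMT2, the mitochondrial enzyme that splits serine into glycine and a one-carbon unit, read 13.26, 13.35 and 13.07 in sh1 and 13.53, 13.30 and 13.30 in sh2, against 12.43, 12.13 and 12.45 in the control. MTHFD2, the mitochondrial dehydrogenase that follows, read 15.57, 15.81 and 15.56 in sh1 and 15.58, 15.73 and 15.67 in sh2, against 14.87, 14.88 and 15.01 in the control. Both rose in both clones, without overlap. SHMT2 changed by 0.89 ± 0.14 in sh1 (adjusted p of 0.000953 by limma) and 1.04 ± 0.14 in sh2 (adjusted p of 0.00038). MTHFD2 changed by 0.73 ± 0.12 (adjusted p of 0.00156) and 0.74 ± 0.12 (adjusted p of 0.00168). SHMT2 lies on chromosome 12, where the neighbour medians were 0.26 in sh1 and 0.39 in sh2. Less these, its change was 0.63 (adjusted p of 0.00628) and 0.65 (adjusted p of 0.00596).

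MTHFD1L, which releases formate from mitochondria, was not called, with differences of 0.32 in sh1 (adjusted p of 0.110 by limma) and 0.27 in sh2 (adjusted p of 0.199). Its sh1 value passed with a trended and robust prior in limma (adjusted p of 0.0311). MTHFD1, the cytosolic trifunctional enzyme, differed by -0.24 and -0.27 (with adjusted p of 0.377 and 0.314). The contrast between compartments was not tested as such, and SHMT1, the cytosolic counterpart of SHMT2, was not measured. ALDH1L2, which oxidises mitochondrial formyl-tetrahydrofolate, read 8.12, 8.35 and 8.55 in sh1 and 9.22, 9.78 and 9.51 in sh2, against 8.26, 8.89 and 8.67 in the control. It was higher in all sh2 arrays than in any other array, by 0.90 ± 0.20 against the control (adjusted p of 0.00861), while sh1 overlapped the control (-0.27, adjusted p = 0.418). ALDH1L2 also lies on chromosome 12, and less a neighbour median of 0.29 its sh2 change was 0.60 and did not pass (adjusted p of 0.0588).

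None of the measured asparagine, proline and phosphoenolpyruvate enzymes was called in either clone. ASNS (asparagine synthetase), a classic ATF4 target, read 14.80, 14.51 and 14.49 in sh1 and 14.68, 15.08 and 14.71 in sh2, against 14.52, 14.81 and 14.55 in the control. All 3 groups overlapped. Its difference was -0.03 in sh1 (95% interval -0.37 to 0.31) and 0.20 in sh2 (-0.14 to 0.54). ASNS lies on chromosome 7 among genes with median changes of -0.28 in sh1 and -0.37 in sh2, and less these it was 0.25 in sh1 (adjusted p of 0.306 by limma) and 0.56 in sh2, which passed (adjusted p of 0.0309). Of the proline enzymes, PYCR1 differed by -0.23 in sh1 and -0.10 in sh2 (with adjusted p of 0.416 and 0.765). ALDH18A1 differed by -0.37 and 0.33 (with adjusted p of 0.0767 and 0.131). Less its neighbours, its sh1 value was -0.46 and passed (adjusted p of 0.0349). PCK2, the mitochondrial phosphoenolpyruvate carboxykinase, differed by -0.14 in sh1 and 0.60 in sh2 (with adjusted p of 0.718 and 0.0708), and the sh2 value passed without sh1 array 2 (adjusted p of 0.0196) and with the replicate number as a block (adjusted p of 0.0264).

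Transsulfuration makes cysteine from homocysteine and serine through CBS and then CTH. CBS read 13.51, 13.54 and 13.49 in sh1 and 13.51, 13.66 and 13.63 in sh2, against 12.54, 12.61 and 12.47 in the control. The hairpin clones lay clear of the control with hardly any spread, and CBS rose by 0.97 ± 0.11 in sh1 (adjusted p of 0.000106 by limma) and by 1.06 ± 0.11 in sh2 (adjusted p of 7.21e-05). A second, dimmer row for CBS gave 0.94 and 1.08. RefSeq lists another chromosome 21 gene under the same synonym, so these values may include that copy. CTH (cystathionine gamma-lyase) read 6.39, 6.74 and 6.21 in sh1 and 7.21, 7.79 and 7.26 in sh2, against 5.93, 6.13 and 5.91 in the control. It rose in sh2 by 1.43 ± 0.18 (adjusted p of 0.000265). In sh1 all arrays were above the control, but the difference of 0.46 did not pass (adjusted p of 0.118) except with the replicate number as a block (adjusted p of 0.0388).

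Among the transporters, SLC7A11, the cystine and glutamate exchanger, read 11.31, 12.11 and 11.48 in sh1 and 11.09, 11.79 and 11.84 in sh2, against 10.04, 10.31 and 10.91 in the control. It rose by 1.21 ± 0.28 in sh1 (adjusted p of 0.00931 by limma) and 1.15 ± 0.28 in sh2 (adjusted p of 0.0143). Without sh1 array 2 the sh1 change was 0.975 (adjusted p of 0.0407). The sh2 call was lost without control array 1 or 2 and without sh2 array 2 or 3 (0.96 to 1.10, adjusted p = 0.0518 to 0.0638). SLC7A1, which imports cationic amino acids, read 12.35, 12.79 and 12.35 in sh1 and 12.41, 12.54 and 12.57 in sh2, against 11.91, 11.88 and 11.84 in the control. It rose by 0.62 ± 0.14 in sh1 (adjusted p of 0.00965) and 0.63 ± 0.14 in sh2 (adjusted p of 0.0105).

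Both chains of the transporter LAT1 were measured. SLC7A5, its light chain, which carries large neutral amino acids, read 14.40, 14.54 and 14.32 in sh1 and 14.19, 13.79 and 13.74 in sh2, against 14.03, 13.73 and 13.93 in the control. It rose in sh1 by 0.52 ± 0.15 (adjusted p of 0.0322 by limma), a call lost without control array 2, control array 3 or any 1 sh1 array (0.44 to 0.57, adjusted p = 0.0510 to 0.119), and differed by 0.01 in sh2. SLC3A2, the heavy chain shared by SLC7A5 and SLC7A11, was not called, with differences of 0.24 in sh1 and 0.03 in sh2 (with adjusted p of 0.303 and 0.918).

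SLC38A2, a sodium-coupled carrier of small neutral amino acids, rose in sh1 by 0.75 ± 0.16 (adjusted p of 0.00763 by limma) and differed by 0.52 in sh2 (adjusted p of 0.0513). It lies on chromosome 12, and less neighbour medians of 0.33 and 0.32 neither value passed (0.42 and 0.20, adjusted p = 0.113 and 0.470). The sh2 value passed without sh1 array 2 (adjusted p of 0.0133) and without sh1 array 3 (adjusted p of 0.0390). SLC1A4, which carries alanine, serine and cysteine, rose in sh1 by 0.63 ± 0.14 (adjusted p of 0.00653), with a difference of 0.38 in sh2 (adjusted p of 0.0818). SLC1A5, the glutamine carrier ASCT2, rose in sh2 by 0.53 ± 0.12 (adjusted p of 0.0103), with 0.32 in sh1 (adjusted p of 0.0937). That sh1 value passed with a trended and robust prior (adjusted p of 0.0183). Less a neighbour median of 0.20 on chromosome 19, the sh2 value was 0.33 (adjusted p of 0.0992).

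GDF15, a secreted cytokine of the stress response, had the largest change of the 35 genes in each clone. It read 12.17, 12.62 and 12.10 in sh1 and 10.70, 10.65 and 10.32 in sh2, against 8.74, 8.84 and 8.68 in the control. The 3 groups were fully separate. It rose by 3.54 ± 0.16 in sh1 (adjusted p of 7.85e-08 by limma), 11.7-fold, and by 1.80 ± 0.16 in sh2 (adjusted p of 1.86e-05), 3.49-fold. Its neighbours on chromosome 19 had medians of 0.00 in sh1 and -0.02 in sh2. FGF21, another secreted factor of mitochondrial stress, averaged 4.36 in sh1 and 4.52 in sh2, against 4.31 in the control, close to the lower quartile of all rows, and it was called in neither clone.

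STC2 (stanniocalcin 2), a secreted glycoprotein, was the 1 gene that fell in sh2. It read 12.63, 13.0 and 12.71 in sh1 and 11.53, 11.58 and 11.47 in sh2, against 12.55, 12.56 and 12.66 in the control. The sh2 arrays lay below all others, by -1.06 ± 0.13 against the control (adjusted p of 0.000182 by limma), while sh1 overlapped the control (0.19, adjusted p = 0.379). STC2 lies on chromosome 5, whose genes near it had median changes of -0.38 in sh1 and -0.60 in sh2. Less these, STC2 was at 0.57 in sh1, which passed (adjusted p of 0.0171), and at -0.47 in sh2 (adjusted p of 0.0480). VLDLR, a lipoprotein receptor, read 5.80, 6.27 and 5.35 in sh1 and 6.77, 6.33 and 6.89 in sh2, against 6.0, 5.34 and 5.59 in the control. It rose in sh2 by 1.02 ± 0.24 (adjusted p of 0.0143), which was lost without control array 2 or sh2 array 3 (with adjusted p of 0.0622 and 0.0580), and differed by 0.16 in sh1.

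**Figure D3:**
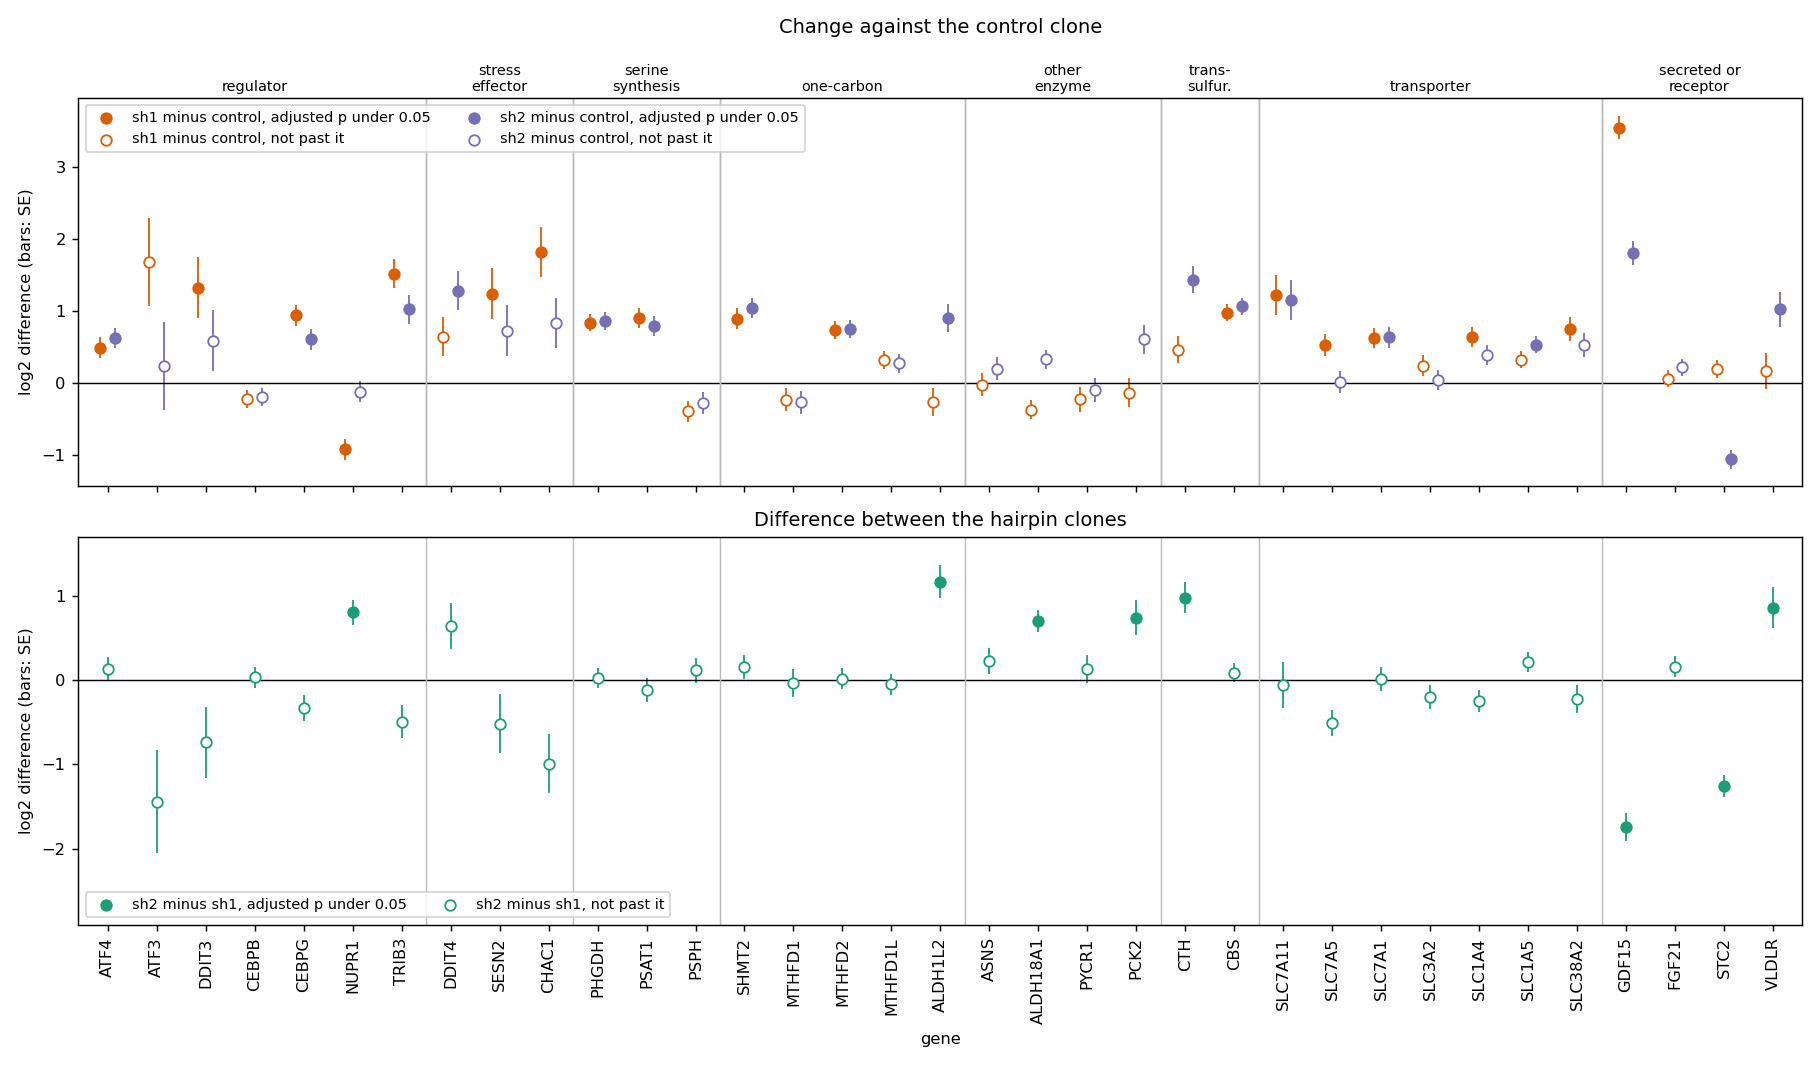
Log2 difference of each gene with its standard error, grouped by role: sh1 and sh2 minus control above, sh2 minus sh1 below. Filled points have an adjusted p under 0.05. GDF15 stands highest above (3.54 in sh1 and 1.80 in sh2), and NUPR1 in sh1 and STC2 in sh2 are the filled points under 0.

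Because several of these genes lie in stretches where neighbouring genes moved together, the change of each was set beside the median change of its 40 nearest expressed genes. Less the neighbour median, 15 genes were higher and 2 lower in sh1, where 20.6% of the rows so tested were called. In sh2, 15 were higher and 1 lower, where 17.0% were called. PHGDH, PSAT1, MTHFD2, CBS, TRIB3, SLC7A11 and GDF15 had neighbour medians between -0.09 and 0.12 in both clones and all passed after the subtraction. CHAC1, DDIT3 and SLC38A2 in sh1 and ALDH1L2 and SLC1A5 in sh2 no longer did.

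**Figure D4:**
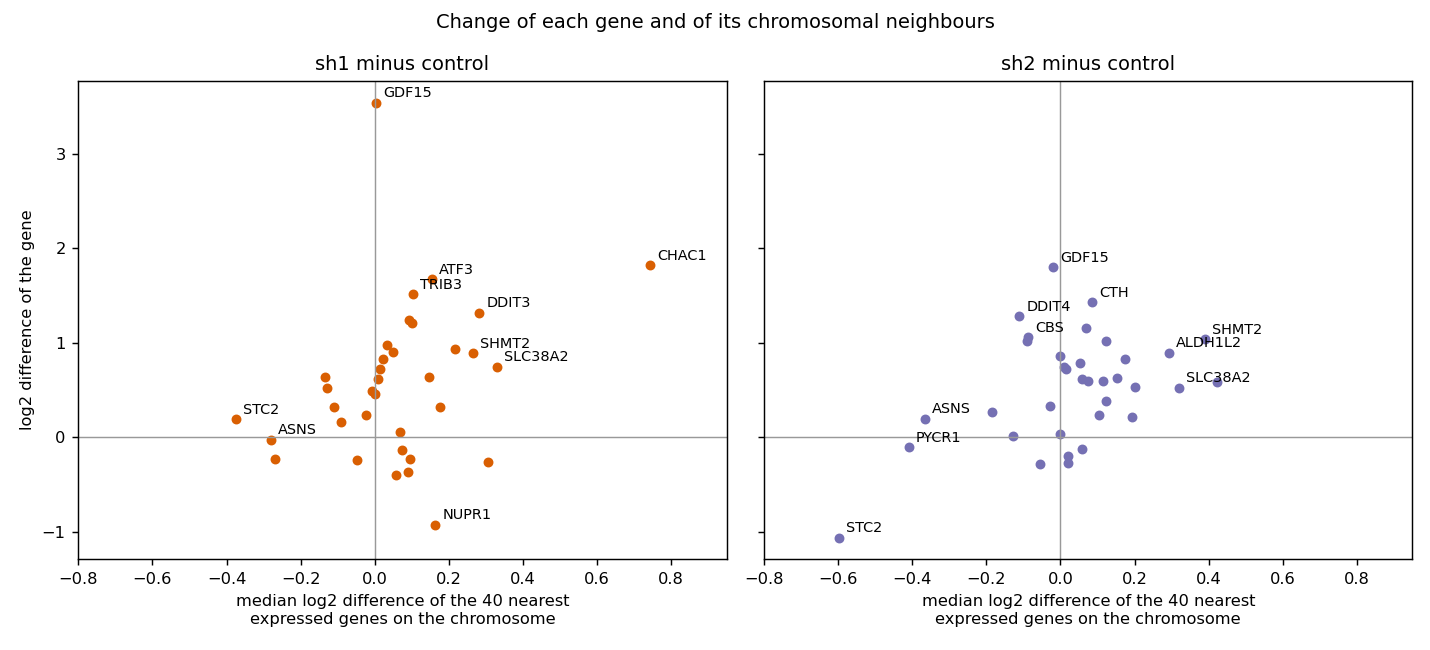
Each point is 1 of the 35 genes, with the median log2 difference of its 40 nearest expressed genes on the horizontal axis and its own log2 difference on the vertical axis, for sh1 (left) and sh2 (right) against the control. CHAC1 in sh1 and STC2 in sh2 lie far from 0 on both axes, while GDF15 has neighbours near 0.

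The hairpin clones were also compared directly. In sh2 minus sh1, 6 of the 35 genes were higher and 2 lower, where 11.3% of all rows were called, 5.73% as higher and 5.57% as lower. The median of the 35 was 0.01, against -0.01 over all rows. Higher in sh2 than in sh1 were ALDH1L2 (1.16 ± 0.20, limma, adjusted p = 0.00236) and CTH (0.97 ± 0.18, adjusted p = 0.0050). NUPR1 (0.80 ± 0.15, adjusted p = 0.00427) and ALDH18A1 (0.70 ± 0.13, adjusted p = 0.00502), the enzyme that starts proline synthesis, were also higher in sh2. PCK2 (0.74, adjusted p = 0.0382) and VLDLR (0.86, adjusted p = 0.0443) were higher in sh2, but each was lost on leaving out any of several arrays. For PCK2 these were control array 1, sh1 arrays 1 and 3, and each sh2 array (adjusted p = 0.0551 to 0.138). For VLDLR they were control array 3, sh1 arrays 1 and 3, and sh2 arrays 1 and 3 (adjusted p = 0.0633 to 0.155). Lower in sh2 than in sh1 were GDF15 (-1.74 ± 0.16, adjusted p = 2.98e-05) and STC2 (-1.25 ± 0.13, adjusted p = 6.40e-05).

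For the serine and one-carbon genes that rose in both clones, the difference between clones was small and not called. The 95% interval of sh2 minus sh1 ran between -0.24 and 0.29 for PHGDH, -0.42 and 0.18 for PSAT1, -0.16 and 0.46 for SHMT2 and -0.26 and 0.29 for MTHFD2. For CBS it ran between -0.16 and 0.34. DDIT4 differed by 0.64 (adjusted p of 0.172 by limma) with all arrays and by 1.02 without sh1 array 2, which passed (adjusted p of 0.00376). CHAC1 differed by -0.99 (adjusted p of 0.0985) and passed at -1.32 without sh1 array 3 (adjusted p of 0.0373). Without sh1 array 2 the CHAC1 difference was smaller, -0.50, and did not pass. Less its neighbours it was -0.42 (adjusted p of 0.530). SLC7A5 missed the threshold narrowly, at -0.51 (adjusted p of 0.0517), and passed without sh2 array 1 (-0.66, adjusted p = 0.0181) and after quantile normalization (-0.52, adjusted p = 0.0480).

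ATF4 acts at the C/EBP-ATF response element, searched here as TGATGNAA on both strands, with TGATGCAA as a narrower form contained in it. RefSeq promoter windows (GRCh38.p14, 250 bases before to 50 after the gene start) were matched for 31 of the 38 genes. Of these, 7 held TGATGNAA (22.6%), against 3.67% of 27305 windows of that length, and 3 held TGATGCAA, against 0.923%. As the list consists largely of known ATF4 targets, these shares describe it and are no result of these clones. The holders were ATF3, CHAC1, ASNS, MTHFD1L, FGF21, SLC3A2 and SLC7A1. In SLC3A2 and SLC7A1 the match does not lie wholly before the gene start, and it is not shown. For the other 5 it does, and 60 bases around each match are given. They are written 5′ to 3′ on the gene's strand, with the match in capitals:
CHAC1 (chr15:40953236-40953295, plus strand): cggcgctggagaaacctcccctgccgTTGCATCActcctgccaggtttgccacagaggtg
ATF3 (chr1:212565190-212565249, plus strand): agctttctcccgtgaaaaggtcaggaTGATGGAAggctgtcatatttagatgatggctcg
ASNS (chr7:97872443-97872502, minus strand): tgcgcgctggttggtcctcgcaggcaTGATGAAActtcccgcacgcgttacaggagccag
MTHFD1L (chr6:150866331-150866390, plus strand): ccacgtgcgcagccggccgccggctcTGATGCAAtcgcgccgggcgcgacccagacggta
FGF21 (chr19:48755444-48755503, plus strand): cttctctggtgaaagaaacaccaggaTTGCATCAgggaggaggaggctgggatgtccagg

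The matches in CHAC1 and FGF21 are on the strand opposite to the gene. Their first base lies 209 bases before the start in CHAC1, 191 in ATF3, 68 in ASNS, 129 in MTHFD1L and 54 in FGF21. Of the 7 holders, CHAC1 and SLC7A1 rose in sh1 and SLC7A1 rose in sh2. ASNS, MTHFD1L, SLC3A2 and FGF21 were called in neither clone in the main fit. ASNS passed in sh2 less its neighbours, and MTHFD1L in sh1 with a trended and robust prior. ATF3 passed in sh1 on leaving out any 1 sh1 array, but with array 1 or 3 left out the change of 2.17 rests on array 2. Without array 2 the ATF3 change was 0.68. A match is no sign of binding, and genes without one in this window, such as PHGDH, PSAT1 and GDF15, were among those that rose.

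Other genes around the pathway were taken from 8 lists of neighbouring functions, and their counts stand beside the 18.8% of all rows called in sh1 and the 16.3% called in sh2. The share called in a list ran between 13.3% and 50% in sh1 and between 15.4% and 43.8% in sh2. In sh1 it was close to that of all rows for the unfolded protein response (13.3%), the aminoacyl-tRNA synthetases (18.8%), the other folate and one-carbon genes (20%) and the other proline, glutamate, asparagine and arginine enzymes (15.4%), and in sh2 for the last of these (15.4%). Among 15 measured genes of the eIF2 alpha kinases, their phosphatases and the relay from mitochondria, 3 rose and 1 fell for sh1, while 3 rose and 2 fell for sh2, with medians of 0.10 and 0.08. EIF2AK4 (GCN2), the kinase of amino acid shortage, rose by 1.20 in sh1 (adjusted p of 6.45e-05 by limma) and 0.45 in sh2 (adjusted p of 0.0375). It lies on chromosome 15, and less its neighbours it was at 0.46 and 0.27 (with adjusted p of 0.0518 and 0.255). PPP1R15B, a subunit of the eIF2 alpha phosphatase, rose by 0.54 and 0.63 (with adjusted p of 0.0117 and 0.00571). DELE1, which relays mitochondrial stress to the kinase HRI, fell in both clones, with changes of -0.62 and -0.88 (with adjusted p of 0.0286 and 0.00526). It lies on chromosome 5, and less its neighbours it was at -0.21 and -0.23 (with adjusted p of 0.422 and 0.388). EIF2AK2 (PKR) rose by 0.69 in sh1 (adjusted p of 0.00181).

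Genes of the endoplasmic reticulum unfolded protein response numbered 15, of which 1 rose and 1 fell for sh1, while 3 rose and 1 fell for sh2 (medians 0.13 and 0.21). PDIA4, a disulfide isomerase, rose by 0.48 and 0.95 (with adjusted p of 0.0110 and 0.000136 by limma), though less its neighbours the sh1 value was 0.13 (adjusted p of 0.486). SEL1L, of the degradation complex, fell by 1.57 in sh2 (adjusted p of 1.15e-05). Of 16 cytosolic aminoacyl-tRNA synthetases, several of which are ATF4 targets, 3 rose and 0 fell for sh1, while 4 rose and 3 fell for sh2 (medians 0.00 and 0.18). CARS1 rose by 0.89 and 0.83, GARS1 by 0.59 and 0.85, and YARS1 by 0.52 and 0.57 (adjusted p at most 0.0153). HARS1, on chromosome 5, fell by 0.89 in sh2, and less its neighbours was at -0.24 (adjusted p of 0.279).

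Of 15 other folate and one-carbon genes, 1 rose and 2 fell for sh1, while 2 rose and 2 fell for sh2 (medians 0.11 and 0.03). TYMS (thymidylate synthase) rose by 0.73 and 0.90 (with adjusted p of 0.00592 and 0.00182 by limma). SFXN1, the mitochondrial serine carrier, fell in both, with changes of -0.54 and -0.65, but it lies on chromosome 5 and less its neighbours was at -0.20 and -0.09 (with adjusted p of 0.323 and 0.711). MTRR fell by 0.93 in sh1 (adjusted p of 0.000303). Of 23 other amino acid transporters, 6 rose and 4 fell for sh1, while 3 rose and 4 fell for sh2 (medians 0.25 and 0.06). SLC38A3 fell in both clones, with changes of -2.13 and -2.12 (adjusted p at most 8.22e-06), while SLC38A4 rose by 1.47 and 2.41 but averaged 3.80 in the control, under the lower quartile. SLC38A1, a glutamine carrier, rose by 0.63 and 0.76 (with adjusted p of 0.00765 and 0.0029). On chromosome 12, less its neighbours, it was at 0.29 and 0.44 (with adjusted p of 0.185 and 0.0569). SLC43A1 rose by 0.68 and 0.77 (with adjusted p of 0.0334 and 0.0199), and less its neighbours its sh1 value was 0.59 (adjusted p of 0.0601).

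Of 13 other proline, glutamate, asparagine and arginine enzymes, 1 rose and 1 fell in each clone (medians -0.04 and -0.05). GLUL (glutamine synthetase) fell in both clones, with changes of -1.18 and -1.71 (with adjusted p of 4.11e-05 and 2.52e-06 by limma), and GOT1, an aspartate aminotransferase, rose by 0.61 and 0.49 (with adjusted p of 0.0126 and 0.0410). Of 11 NRF2 targets, a list relevant to SLC7A11, 2 rose and 1 fell for sh1, while 3 rose and 1 fell for sh2 (medians 0.13 and 0.17). HMOX1 rose by 1.41 and 0.91 (with adjusted p of 0.0031 and 0.0389) and TXNRD1 by 1.29 and 0.78 (with adjusted p of 1.28e-05 and 0.000691). GCLC fell in each clone, with a change of -0.62, but less its neighbours on chromosome 6 it was at 0.14 and 0.05, and GCLM rose by 0.46 in sh2 (adjusted p of 0.0441), where less its neighbours it was at 0.38 (adjusted p of 0.0759). Of 10 mitochondrial chaperones and proteases, 3 rose and 2 fell in sh1, and 3 rose in sh2 (medians 0.14 and 0.01). TRAP1, DNAJA3 and CLPX rose in both clones by 0.52 to 0.87, and none passed less its neighbours. YME1L1 fell by 1.32 in sh1 and less its neighbours on chromosome 10 was at -0.24 (adjusted p of 0.210).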

How the data were processed

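Total RNA (100 ng) was labelled with biotin for 1-colour whole-transcript arrays, per the labels' protocols. The authors deposited log2 signals, made with Transcriptome Analysis Console per the submitters' processing notes. Its settings and version are not given in the sources used. The log2 scale was read from the deposited values (2.03 to 18.57). They were used without further scaling. The number of arrays limits the precision.

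The 21448 rows were fitted with limma 3.58.1 in R 4.3.3, with 3 group means over all 9 arrays, and p-values were adjusted by Benjamini and Hochberg over all rows. As a check of the code, the fit was run on simulated data with independent noise in each row. That simulation held no outlying array and no neighbouring genes that moved together, so it does not bear on either. A gene with several rows (CBS) was represented by the brightest. Neighbour values subtract, in each array, the median deviation of the 40 nearest genes above the median signal, ordered by RefSeq positions (GRCh38.p14).

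The fit has no block by array number: deviations of same-numbered arrays from their group means correlated at -0.0358 to 0.180 and 2 of 9 pairs passed 0.1. All members are named. From each other list, up to 4 genes called in both clones in 1 direction were named by the smaller change, and, with fewer, the called gene with the largest other change. The members and lists were chosen with earlier results of these data known.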

Additional observations from a re-analysis of the deposited data

Results flagged for a closer look

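For 8 of the 35 genes the change differed between the hairpin clones by a test of the difference itself (limma, sh2 minus sh1), which is 22.9% of them, where 11.3% of all rows were called. With rows under the lower quartile left out, 1348 rows were higher and 1318 lower, against 1229 and 1194 in the fit of all rows. The share called among brighter rows was thus above 11.3%. The differences were 1.16 for ALDH1L2, 0.97 for CTH, 0.86 for VLDLR, 0.80 for NUPR1, 0.74 for PCK2 and 0.70 for ALDH18A1, all higher in sh2, and -1.74 for GDF15 and -1.25 for STC2, both lower in sh2. ALDH18A1 was at 0.33 in sh2 and -0.37 in sh1 against the control, and PCK2 at 0.60 in sh2 and -0.14 in sh1, so these had opposite signs without being called in either clone. Less the neighbour medians, the sh2 minus sh1 values were between 0.74 (PCK2) and 1.18 (ALDH1L2) for the genes higher in sh2, and -1.72 for GDF15 and -1.03 for STC2. Each group is 1 clone, so hairpin and clone cannot be told apart.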

How the results depend on the processing

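Over 18 alternatives (9 settings and 9 with 1 array left out), 1791 of 1890 values of single genes kept their side of the threshold. Of the rest, 65 lost a call and 34 gained one, and 0 called values changed sign. These totals are no measure of robustness, because part of them was fixed in advance. Taking the mean of a gene's rows could alter the value of CBS alone, and all 105 values kept their side. Leaving out an array of the group not compared leaves the change itself as it was. Of the 65 lost calls, 12 came from setting the threshold at 0.01. Some uncalled values did change sign, such as VLDLR in sh1 (0.16, and -0.07 without sh1 array 2). In sh1 the number of genes that rose was 13 to 17 on leaving out 1 array and 13 to 19 under the other settings. The 13 under the other settings came from the stricter threshold, an adjusted p under 0.01, and not from a change of processing. The calls over all rows moved too: 2094 of 21448 rows rose in sh1 in the main fit. On leaving out 1 array 1531 to 2124 rows did, and with a trended and robust prior 2468. The number of the 35 genes that fell was 1 to 2 on leaving out 1 array. It was 2 with the neighbour correction and with a trended and robust prior, where ALDH18A1 passed. In sh2, 13 to 21 rose on leaving out 1 array, and 10 rose at an adjusted p under 0.01, a stricter threshold by construction, while 1 fell throughout. Over all rows, 1787 rose in sh2 in the main fit and 1192 to 1837 on leaving out 1 array. All rows were not counted at the stricter threshold. In sh2 minus sh1, 4 to 7 were higher and 2 to 3 lower on leaving out 1 array, and 4 were lower with the trended and robust prior. Of all rows, 943 to 1158 were higher and 860 to 1113 lower on leaving out 1 array, and 1541 were lower with that prior. In the main fit these were 1229 and 1194. The median of the genes in sh2 minus sh1, 0.01 with all arrays, ran between -0.0067 and 0.095 on leaving out 1 array, turning negative (-0.0067) without sh2 array 2. With the replicate number as a block, CTH in sh1 (0.46, adjusted p = 0.0388), PCK2 in sh2 (0.60, adjusted p = 0.0264) and TRIB3 in sh2 minus sh1 (-0.49, adjusted p = 0.0481) passed, VLDLR in sh2 minus sh1 was lost (adjusted p = 0.0693), and no other call changed. Fitted with its 2 groups alone, sh1 minus control lost ATF4, DDIT3 and SESN2 (adjusted p = 0.0579, 0.0761 and 0.0561), so that 14 rose. Of all rows, 2041 then rose, against 2094 in the main fit. The same setting gained SESN2, CHAC1, PCK2 and SLC38A2 in sh2 minus control (adjusted p = 0.00837, 0.0241, 0.0289 and 0.0202), so that 20 rose. Of all rows, 1630 rose there, against 1787 in the main fit. It also lost PCK2 and VLDLR in sh2 minus sh1 (adjusted p = 0.0700 and 0.0601). No detection calls were used here, and FGF21, at 4.31 to 4.52, lay close to the lower quartile of the row means (4.21). Where no cause is named, the cause was not tested.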

Other observations

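Genes outside the list also stood high in sh1 array 2 and were picked out after their values were seen. JUN, a stress-induced transcription factor that dimerises with ATF3, read 9.15 in that array and 7.54 and 7.64 in the other sh1 arrays, a gap of 1.56 that ranked 7 among all rows. TXNIP, which binds thioredoxin and responds to glucose and amino acid supply, read 10.82 there and 9.25 in each of the others, a gap of 1.57 that ranked 6. Other rows of like rank were dim. OR8H3 (rank 5) read 4.09 there and 2.46 and 2.57 in the other sh1 arrays. PPM1J (rank 8) read 5.33 there and 3.70 and 3.85, and RLN1 (rank 9) 5.25 there and 3.46 and 3.99. Among the 8 lists of neighbouring functions, the 23 other amino acid transporters had the highest median gap in that array, 0.21, with 1 gene over 1. That gene, SLC7A7, was dim, at 4.18 in that array and 2.94 and 3.36 in the other sh1 arrays. The other 7 lists had median gaps between -0.12 and 0.03, with 0 genes over 1.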
